A study of Arabidopsis thaliana with 67 samples.

Results

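The genes described here are 52 cell cycle and DNA replication genes of Arabidopsis thaliana. They were taken as a list of named genes from the 60886 features of the deposited count table, of which 29696 are gene rows. The list holds 9 B-type, 7 A-type and 9 D-type cyclins, 5 cyclin-dependent kinases (CDKs) of the CDKA and CDKB classes and 7 CDK inhibitors of the KRP family. It also holds the 6 subunits of the MCM helicase, 4 genes around S phase (E2FA, RBR1, PCNA1 and PCNA2) and 5 genes of mitosis and division (the Aurora kinases AUR1 and AUR2, KNOLLE, TSK and the kinesin gene AT5G60930). All 52 identifiers matched the RefSeq annotation of TAIR10.1.

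The study measured nuclear RNA in 67 libraries of Col-0 plants that were wild type, mutant in ago5, mutant in ago9, or of a line with the label ago59. That label is taken to mean the double mutant. The affected genes encode ARGONAUTE proteins, which carry small RNAs. Seedling nuclei came from shoot apices taken at 7 d, from soil-grown plants with days of 16 h and nights of 8 h, with 100 nuclei sorted per library and a Smart-seq3 protocol. Pollen came from plants of 35 d, and 2 ng of the RNA from its nuclei entered a Smart-seq2 protocol. The stem-cell population, sorted for an mCherry reporter whose promoter is not given in the sources used here, had 5 libraries of the wild type, 8 of ago5, 7 of ago9 and 7 of ago59. The non-stem population, sorted with the DNA stain DAPI, had 3, 3, 4 and 3. Sperm nuclei had 3 libraries of each genotype, and vegetative nuclei, from the large pollen cell that grows the pollen tube, had 4, 3, 4 and 4. The labels do not say whether libraries of a group came from separate plants, so p-values measure only the spread between these libraries. No test compares seedlings with pollen, because the library protocols differ.

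In dividing plant cells, D-type cyclins bind CDKA, and the complex phosphorylates RBR1, the retinoblastoma-related protein that holds E2F transcription factors in check. Released E2F factors switch on S phase genes such as those of the MCM helicase, which unwinds DNA at replication origins, and PCNA, the clamp that keeps DNA polymerase on its template. B-type cyclins and the plant-specific CDKB kinases act around the entry into mitosis, KRP proteins inhibit CDK complexes, and KNOLLE, a syntaxin, fuses vesicles into the new cell plate. In the shoot apex, slowly dividing stem cells feed faster dividing flanks. In pollen, the generative cell divides into a pair of sperm cells, while the vegetative nucleus does not divide again.

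Promoter sequences of 5 members are shown: a pair of B-type cyclins and a pair of MCM genes as examples of the motif classes searched, and CYCD7-1, the most abundant member in sperm. They are the 250 bases before the annotated gene start in RefSeq, build TAIR10.1, on the strand of the gene. Capitals mark the E2F site letters TTTCCCGC, TTTGGCGC, TTTCGCGC or TTTGCCGC, or the core of the MSA element CNAACGG, which MYB3R factors bind, searched on both strands. The windows are chr4:17624309-17624558 (minus strand) for CYCB1-1, chr5:1861704-1861953 (minus strand) for CYCB1-2, chr1:16969964-16970213 (plus strand) for MCM2, chr2:3527501-3527750 (minus strand) for MCM5 and chr5:416667-416916 (plus strand) for CYCD7-1.
CYCB1-1: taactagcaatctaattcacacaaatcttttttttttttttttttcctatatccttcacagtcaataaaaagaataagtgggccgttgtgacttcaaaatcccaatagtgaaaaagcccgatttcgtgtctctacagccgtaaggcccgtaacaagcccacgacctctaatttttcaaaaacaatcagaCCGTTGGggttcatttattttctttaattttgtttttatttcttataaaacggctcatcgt
CYCB1-2: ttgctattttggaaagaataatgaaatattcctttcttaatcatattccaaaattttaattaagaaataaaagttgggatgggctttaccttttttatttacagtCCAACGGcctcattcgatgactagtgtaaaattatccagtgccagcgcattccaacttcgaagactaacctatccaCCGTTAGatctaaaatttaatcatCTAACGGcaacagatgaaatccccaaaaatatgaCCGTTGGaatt
MCM2: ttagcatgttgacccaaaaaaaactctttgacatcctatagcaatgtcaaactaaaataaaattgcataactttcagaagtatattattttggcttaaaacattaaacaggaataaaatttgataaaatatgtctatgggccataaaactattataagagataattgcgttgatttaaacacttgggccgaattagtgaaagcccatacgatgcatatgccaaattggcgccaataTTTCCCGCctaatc
MCM5: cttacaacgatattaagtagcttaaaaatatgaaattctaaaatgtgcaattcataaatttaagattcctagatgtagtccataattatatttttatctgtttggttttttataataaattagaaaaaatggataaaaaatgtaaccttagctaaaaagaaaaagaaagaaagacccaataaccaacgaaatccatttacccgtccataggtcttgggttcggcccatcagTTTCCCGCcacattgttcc
CYCD7-1: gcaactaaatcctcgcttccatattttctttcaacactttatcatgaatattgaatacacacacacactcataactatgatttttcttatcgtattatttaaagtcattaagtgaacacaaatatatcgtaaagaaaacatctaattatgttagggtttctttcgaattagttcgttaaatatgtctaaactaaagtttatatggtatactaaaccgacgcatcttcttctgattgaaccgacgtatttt

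The MSA core stood in the window of 8 of the 52 members (15.4%) and of 1236 of 27443 protein-coding genes (4.50%). The 8 members were 6 of the 9 B-type cyclins (CYCB1-1, CYCB1-2, CYCB1-3, CYCB2-1, CYCB2-2 and CYCB2-3), the A-type cyclin CYCA1-1 and the Aurora kinase AUR2. CYCB1-2 had 4 cores, which began 145, 69, 45 and 11 bases before the gene start, and CYCB1-1 had 1, at 61 bases. E2F site letters stood in the window of 7 members (13.5%) and of 387 of the protein-coding genes (1.41%). They were 5 of the 6 MCM genes (MCM2 to MCM6), RBR1 and the D-type cyclin CYCD3-3. In MCM2 and MCM5 the site began 14 and 19 bases before the gene start. The CYCD7-1 window held neither motif. A match of letters is a description of the window and not a bound site.

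Library facts bear on precision. Depth, in M counts, was 1.41 to 5.75 for stem-cell, 2.14 to 6.24 for non-stem, 7.16 to 9.49 for sperm and 7.69 to 10.2 for vegetative libraries. Levels are given as CPM, the count of a gene scaled so that each library sums to 1000000, so 1 count was worth up to 0.709 CPM in a stem-cell library. The biological coefficient of variation, the spread between libraries beyond counting noise, was 0.601 in the wild-type seedling comparison and 0.162 in the wild-type pollen comparison, so smaller differences could be called in pollen. Reporter counts ranged from 5 to 232 in stem-cell libraries and were 0 in 10 of 13 non-stem libraries, with a highest of 18. Summed levels of 5 shoot meristem genes (CLV3, WUS, STM, KNAT1 and AGO9) were 99.7 to 444.5 CPM in stem-cell libraries and 3.37 to 52.5 CPM in non-stem libraries, ranges that did not overlap. This sum varies with genotype through AGO9, which averaged 86.6 CPM in wild-type, 11.9 in ago9 and 13.0 in ago59 stem-cell libraries. In the wild type alone the sums were 160.0 to 259.7 CPM and 8.42 to 30.6 CPM. The summed CPM of 5 sperm genes was 2572 to 3464 in sperm and 31.4 to 64.9 in vegetative libraries, and that of 6 vegetative cell genes was 5232 to 11582 and 28843 to 38379. AGO9 in sperm averaged 743.1 CPM in the wild type, 36.9 in ago9 and 46.7 in ago59. AGO5 in sperm averaged 41.4 CPM in the wild type, 2.30 in ago5 and 3.03 in ago59. In stem cells AGO5 did not separate the lines: 3.78 to 32.3 CPM in the wild type and 1.82 to 35.1 CPM in ago5.

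Most members were present at moderate levels in seedling nuclei and split widely in pollen. Of the 52, 41 averaged 10 to 100 CPM over the 27 stem-cell libraries and none averaged over 100. In the 13 non-stem libraries 35 lay in that range. In sperm, 10 members averaged over 100 CPM and 15 averaged 1 CPM or less, and in vegetative nuclei 3 averaged over 100 and 33 averaged 1 or less. The members summed to 1180 ± 151.7 CPM in stem-cell libraries (SD, n = 27), 912 ± 84.7 in non-stem libraries (n = 13), 15554 ± 1293 in sperm (n = 12) and 971.9 ± 147.3 in vegetative nuclei (n = 15). One gene made most of the sperm sum. CYCD7-1 (AT5G02110), a D-type cyclin, took 71.5% of it (64.7% to 78.9% over libraries), and without that gene the sums were 4407 ± 583.3 CPM in sperm and 829.5 ± 102.9 CPM in vegetative nuclei.

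**Figure D1:**
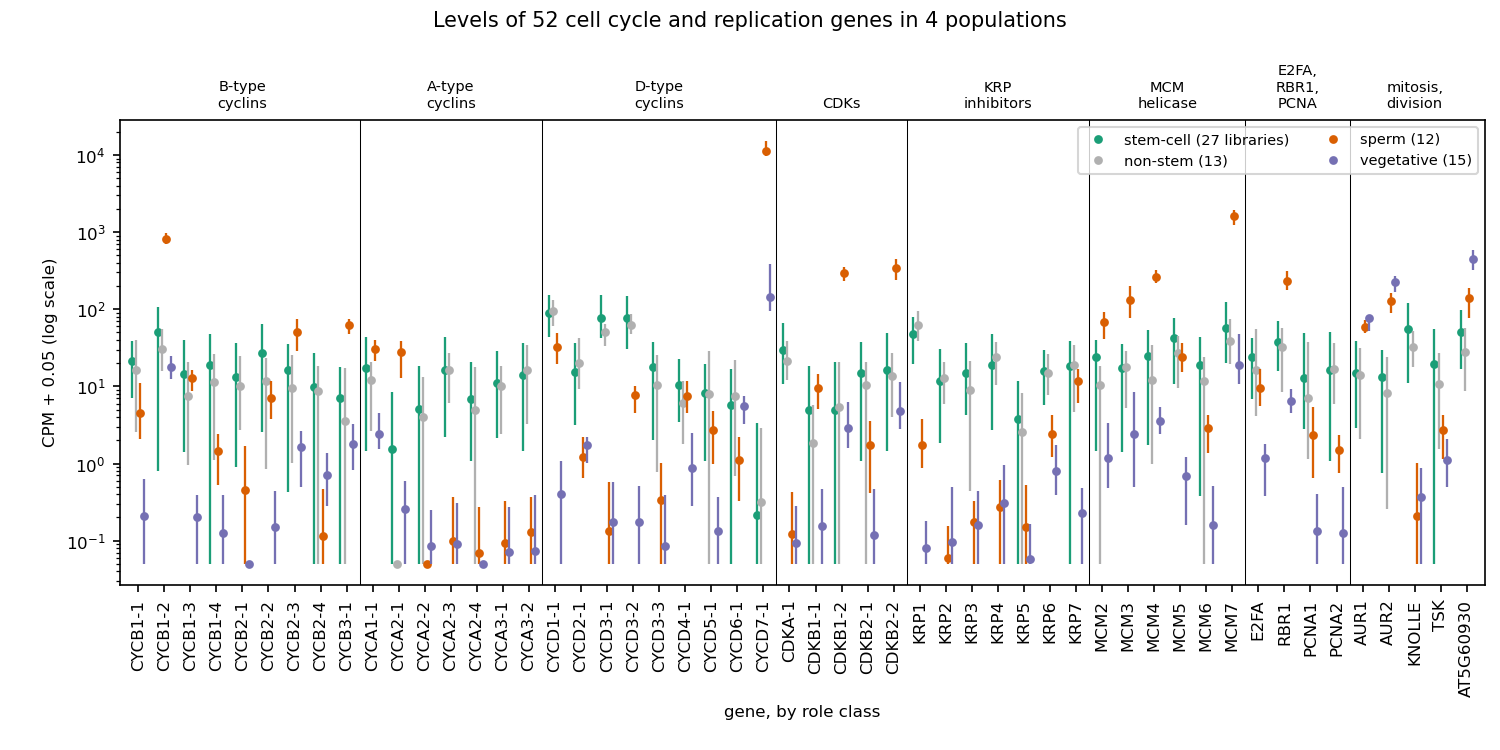
Mean CPM of the 52 members in 4 populations, with 0.05 added on a log axis. Dots are means over libraries, lines run from the lowest to the highest library, and genes are grouped by role. Sperm values spread from 0 for CYCA2-2 to a mean of 11147 CPM for CYCD7-1, while stem-cell means stay at or under 89.1 CPM.

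Per kilobase of annotated exon, the order of levels differed between populations. In stem-cell libraries the highest mean levels were those of CYCD3-2 (45.9 CPM per kb), CYCD3-1 (41.2), KRP1 (40.8), KNOLLE (39.7) and CYCD1-1 (35.6). In non-stem libraries KRP1 came first at 53.4 CPM per kb, followed by CYCD1-1 at 37.6 and CYCD3-2 at 36.7. The libraries of neighbours in these orders overlapped in CPM in stem cells, where CYCD3-2 ran from 30.8 to 148.2 CPM and CYCD3-1 from 42.6 to 154.8 CPM. In sperm CYCD7-1 stood at 8515 CPM per kb, MCM7 at 609.2, CYCB1-2 at 448.9, CDKB2-2 at 247.6 and CDKB1-2 at 190.0. In vegetative nuclei CYCD7-1 (108.8 CPM per kb), AT5G60930 (99.2), AUR2 (94.6) and AUR1 (50.4) came first. Vegetative libraries also held the 5 sperm genes, at sums of 31.4 to 64.9 CPM against 2572 to 3464 CPM in sperm. The part of sperm RNA in the vegetative values of CYCD7-1 and other members was not tested. Some members had no count at all in a population: CYCA2-1 in the 13 non-stem libraries, CYCA2-2 in the 12 sperm libraries, and CYCB2-1 and CYCA2-4 in the 15 vegetative libraries. In bulk samples such as these, fewer cells of a type and less RNA per cell cannot be told apart.

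Stem-cell and non-stem nuclei of the wild type were compared to see which members differ within the shoot apex. TSK (TONSOKU, AT3G18730), a protein needed for orderly division in meristems and for genome maintenance, and AT5G60930, annotated by RefSeq as a kinesin (chromosome 5, bases 24515281 to 24522743, minus strand, TAIR10.1), were higher in stem-cell nuclei. They were the only 2 called of 47 members tested, where 0.181% of all 17155 features tested were called (0.169% higher, 0.0117% lower). TSK was at 22.2, 55.4, 36.7, 23.7 and 21.1 CPM in the 5 stem-cell libraries and at 2.81, 1.60 and 3.04 CPM in the 3 non-stem libraries. Every stem-cell library was above every non-stem library, and the log2 difference was 3.68 (SE 0.574, adjusted p = 0.0129, edgeR's quasi-likelihood test, with p adjusted over all features by Benjamini and Hochberg's method). AT5G60930 was at 97.0, 78.8, 77.5, 56.5 and 85.5 CPM in stem-cell libraries and at 20.1, 22.1 and 21.3 CPM in non-stem libraries. Those libraries did not overlap either, and the edgeR log2 difference was 1.94 (SE 0.300, adjusted p = 0.0129).

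The other members with no overlap in the wild type did not pass the test. The B-type cyclin CYCB2-3 (AT1G20610) was at 20.5, 30.5, 29.7, 16.1 and 8.23 CPM against 7.02, 0.962 and 5.47 CPM, with an edgeR adjusted p of 0.325. KNOLLE (AT1G08560) was at 54.1, 32.8, 81.1, 63.1 and 44.8 CPM against 29.5, 22.8 and 22.2 CPM, with an edgeR adjusted p of 0.278. In all, 4 members had every stem-cell library above every non-stem library and none had the reverse, while 1.64% of 36609 features were higher in this way. Over the 47 members the median log2 difference was 0.34, against 0.01 over all features tested, 31 were positive and 7 had an unadjusted p under 0.05. Of all features tested, 50.4% were positive and 7.43% had an unadjusted p under 0.05. The members not tested for low counts were CYCB3-1, CYCA2-1, CYCD7-1, CDKB1-1 and KRP5. Summed leaf mesophyll genes were also lower in the wild-type stem-cell libraries, at 28485 to 33176 CPM against 37597 to 41036 CPM, and their part in these differences was not tested. The calls on TSK and AT5G60930 rested on few non-stem libraries: without non-stem replicate 2 neither was called (0 of the members), without replicate 3 TSK was lost, without replicate 4 AT5G60930 was lost, and the adjusted p rose to at most 0.0784 and 0.0966. In a fit of all 8 seedling groups neither was called, with log2 differences of 3.67 for TSK (edgeR adjusted p = 0.169) and 1.93 for AT5G60930 (edgeR adjusted p = 0.0886).

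**Figure D2:**
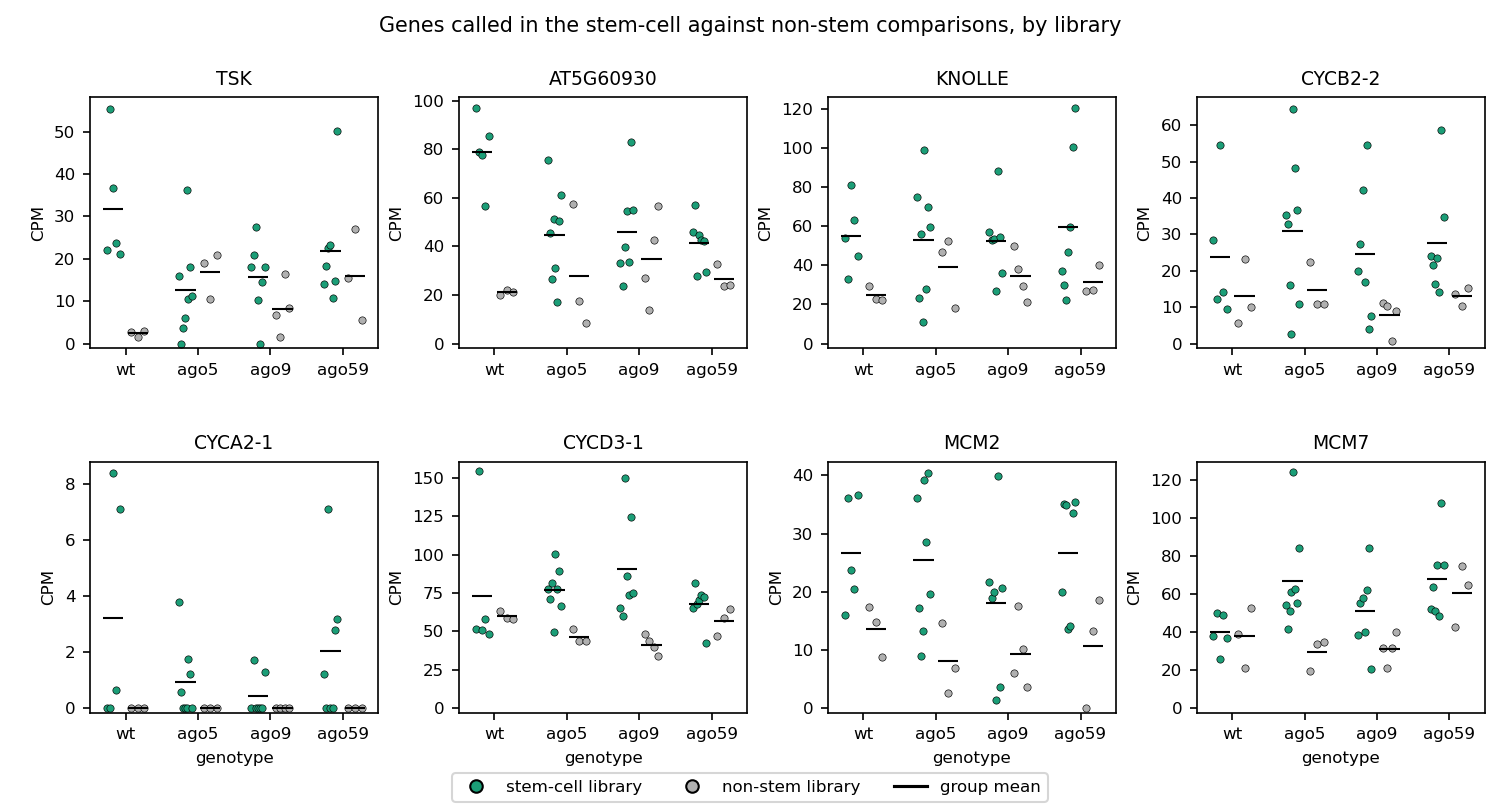
CPM of 8 members in each seedling library, by genotype. Dots are libraries, bars are group means, and stem-cell and non-stem libraries stand side by side. TSK separates the populations in the wild type (21.1 to 55.4 against 1.60 to 3.04 CPM), while in ago5 the means are 12.8 and 16.9 CPM.

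Averaging the same difference over the 4 genotypes gave more precision. Of 51 members tested, 7 were higher in stem-cell nuclei and none was lower, where 6.93% of 20753 features were called (4.06% higher, 2.87% lower). They are the kinesin gene AT5G60930, the D-type cyclin CYCD3-1 (AT4G34160), the A-type cyclin CYCA2-1 (AT5G25380), the B-type cyclin CYCB2-2 (AT4G35620), the helicase subunits MCM2 (AT1G44900) and MCM7 (AT4G02060), and KNOLLE. Of the 7, CYCA2-1 had no count in non-stem libraries and entered the test through stem-cell libraries alone. TSK, called in the wild-type comparison, was tested here and was not called. The median log2 difference over the members was 0.58, against 0.06 over all features. Of the members 42 were positive, where 54.9% of all features were. All 52 members overlapped between the 27 stem-cell and the 13 non-stem libraries, and the share of all features that did is not given here.

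AT5G60930 ranged from 17.0 to 97.0 CPM (median 46.1) in stem-cell libraries and from 8.56 to 57.4 CPM (median 23.5) in non-stem libraries, with a log2 difference of 0.92 (SE 0.214, edgeR adjusted p = 0.0038). CYCD3-1, known to hold cells in the division phase in response to cytokinin, ranged from 42.6 to 154.8 CPM (median 72.1) and from 33.7 to 64.7 CPM (median 48.1), with a log2 difference of 0.59 (SE 0.142, edgeR adjusted p = 0.00506). The populations overlapped for both genes. In the wild type CYCD3-1 was at 51.5, 154.8, 50.6, 58.4 and 48.5 CPM in stem-cell nuclei against 63.2, 58.7 and 57.8 CPM. The library at 154.8 CPM stood apart from the others of its group. In ago9 the means were 90.7 ± 33.7 (SD, n = 7) and 41.2 ± 6.11 CPM (n = 4), with 60.0 CPM the lowest stem-cell library and 48.1 CPM the highest non-stem library. The test of whether the stem-cell difference varies with genotype did not call CYCD3-1. CYCD3-1 overlaps AT4G34150, which was at 130.2 CPM in stem-cell and 166.2 CPM in non-stem libraries, and strand handling is not given in the sources used here.

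CYCA2-1, an A-type cyclin, was the rarest of the called members. It was detected in 13 of 27 stem-cell libraries, with a highest value of 8.38 CPM, and in none of the 13 non-stem libraries. The stem-cell libraries with counts were 3 of 5 in the wild type, 4 of 8 in ago5, 2 of 7 in ago9 and 4 of 7 in ago59. Against a floor of 3 counts over the non-stem libraries the stem-cell mean was at least 20.9-fold higher. CYCA2-1 passed the filter on low counts through stem-cell libraries alone. Its call (edgeR adjusted p = 0.00423) therefore adds no support beyond the detection counts.

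Among replication genes, MCM2 ranged from 1.40 to 40.4 CPM (median 20.7) in stem-cell libraries and from 0 to 18.6 CPM (median 10.1) in non-stem libraries, with a log2 difference of 1.23 (SE 0.358, edgeR adjusted p = 0.0255). MCM7 ranged from 20.3 to 124.3 CPM (median 54.2) and from 19.5 to 74.4 CPM (median 34.5), with a log2 difference of 0.55 (SE 0.172, edgeR adjusted p = 0.0423). The populations overlapped for both subunits, and the other 4 subunits were not called, at log2 differences from 0.01 (MCM3) to 0.92 (MCM4). Among division genes, KNOLLE ranged from 11.2 to 120.6 CPM (median 54.1) and from 18.0 to 52.5 CPM (median 29.4), with a log2 difference of 0.78 (SE 0.233, edgeR adjusted p = 0.0309). CYCB2-2 ranged from 2.54 to 64.5 CPM (median 23.6) and from 0.805 to 23.2 CPM (median 10.9), with a log2 difference of 1.15 (SE 0.347, edgeR adjusted p = 0.0318). For these last genes the highest stem-cell libraries stood above all non-stem libraries, and the lowest stem-cell libraries lay within or below them. KNOLLE overlaps AT1G08550, at 43.6 CPM in stem-cell and 54.9 CPM in non-stem libraries.

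By class, positive log2 differences were found for 9 of 9 B-type cyclins, 5 of 7 A-type cyclins, 5 of 8 D-type cyclins tested, 5 of 5 CDKs, 4 of 7 KRP genes, 6 of 6 MCM subunits, 3 of 4 genes of the E2FA, RBR1 and PCNA group, and 5 of 5 genes of mitosis and division. Of these, 7 B-type cyclins and 4 MCM subunits had an unadjusted p under 0.05, as did 24 of all 51 members tested and 19.7% of all features. KRP1 (AT2G23430), the KRP gene with the highest level, ranged from 19.4 to 79.4 CPM in stem-cell and 38.4 to 93.9 CPM in non-stem libraries, with a log2 difference of -0.38 (edgeR adjusted p = 0.156). From a list of 58 other cell cycle genes, 57 were tested, 11 were higher in stem-cell nuclei and none was lower. Of all features tested, 4.06% were higher and 2.87% were lower. CCS52B, an activator of the anaphase-promoting complex, had a log2 difference of 1.18 (SE 0.192, edgeR adjusted p = 2.87e-05). TIL1, the catalytic subunit of DNA polymerase epsilon, had one of 0.87 (SE 0.163, edgeR adjusted p = 0.000281).

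Summed mesophyll, epidermis and vasculature marker levels averaged 21898, 604.6 and 103.7 CPM in stem-cell libraries and 26911, 721.6 and 127.6 CPM in non-stem libraries, and their part in the member differences was not tested. Without the non-stem libraries that held over 1 reporter count, 3 members were called, and CYCA2-1, KNOLLE, MCM2, CYCB2-2 and MCM7 were lost. AT5G60930 and CYCD3-1 were called under all 6 alternatives. Leaving out any 1 of the 40 libraries lost neither AT5G60930 nor CYCD3-1. The CYCA2-1 call was also kept, but with no count in any non-stem library this adds no support. MCM2 was lost without ago5 non-stem replicate 2 or wild-type non-stem replicate 4, KNOLLE without any of 6 non-stem libraries, CYCB2-2 without any of 7 libraries and MCM7 without any of 17. With ago59 non-stem replicate 1 left out, 4 members were called.

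The stem-cell difference itself was compared between genotypes with an interaction term. No member was called by edgeR, against 0.00482% of all features, and 2 (CYCB1-1 and TSK) had an unadjusted p under 0.05, as did 5.35% of all features. TSK averaged 31.8 ± 14.6 CPM in wild-type stem-cell libraries (SD, n = 5) and 12.8 ± 11.3 CPM in ago5 (n = 8), 15.6 ± 8.71 CPM in ago9 (n = 7) and 21.9 ± 13.2 CPM in ago59 (n = 7). In non-stem libraries it averaged 2.48 ± 0.771 CPM in the wild type (n = 3), 16.9 ± 5.61 CPM in ago5 (n = 3), 8.25 ± 6.23 CPM in ago9 (n = 4) and 16.0 ± 10.7 CPM in ago59 (n = 3). In the 3 mutants the stem-cell and non-stem libraries of TSK overlapped.

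Sperm and vegetative nuclei of the wild type differed in most members that were measurable. Of 33 members tested, 28 were higher and 4 were lower in sperm, where 91.1% of 10125 features were called (45.0% higher, 46.1% lower). The share called is thus near that of all features. The median log2 difference was 5.48 over the members tested and -0.16 over all features. With CYCD5-1 and PCNA1 set at their bounds, the members' median was 5.30. A member could pass the filter on low counts through its sperm libraries alone, and 20 members passed it within vegetative nuclei. The median and the split in direction are therefore partly set by which members entered the test. Over libraries, 32 of the 52 members had every sperm library above every vegetative library and 4 had the reverse, against 19.4% and 17.5% of 31218 features. The columns of the 7 wild-type pollen libraries were matched to samples by elimination, so every wild-type pollen value rests on that match. Scaling matters at this breadth: with relative log expression factors the median over all features moved by 0.467 on the log2 scale.

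Of the D-type cyclins, CYCD7-1, which in leaves is known from the guard cell lineage, was the most abundant member in sperm. It was at 15129, 11099 and 11664 CPM in sperm and at 103.3, 133.0, 138.5 and 204.4 CPM in vegetative nuclei. The log2 difference was 6.49 (SE 0.291, edgeR adjusted p = 2.41e-13). In the same comparison the 5 sperm genes had log2 differences of 4.67 to 6.70. The part of sperm RNA in the vegetative values of the members was not tested. In seedlings CYCD7-1 was detected in 5 of 27 stem-cell and 2 of 13 non-stem libraries, at 3.31 CPM or less. CYCD1-1 (AT1G70210) was at 26.7, 31.8 and 49.2 CPM in sperm and at 0.112, 0.115, 0.258 and 0.443 CPM in vegetative nuclei, a log2 difference of 7.15 (SE 0.284, edgeR adjusted p = 4.37e-14). CYCD7-1 and CYCD1-1 did not overlap between the nuclei. CYCD1-1 passed the filter on low counts through sperm libraries alone, so its call adds no support beyond these levels. CYCD6-1 (AT4G03270), chosen for naming after its values were seen, ran the other way, at 0.717, 0.988 and 1.38 CPM in sperm and 3.58, 4.95, 5.54 and 4.43 CPM in vegetative nuclei. Its log2 difference was -2.17 (SE 0.334, edgeR adjusted p = 7.02e-06), and it overlaps AT4G03260, which averaged 44.1 CPM in sperm and 68.1 CPM in vegetative nuclei. CYCD3-1, among the highest members in seedlings, averaged 0.0840 CPM in sperm and 0.126 CPM in vegetative nuclei and was not tested.

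The B-type cyclins stood out by 1 gene. CYCB1-2 (AT5G06150) was at 706.7, 899.7 and 764.9 CPM in sperm and at 13.8, 16.1, 17.3 and 24.4 CPM in vegetative nuclei, a log2 difference of 5.48 (SE 0.187, edgeR adjusted p = 6.07e-15). CYCB3-1 (AT1G16330) was at 60.6, 63.4 and 74.1 CPM in sperm and at 0.783, 2.30, 2.32 and 1.33 CPM in vegetative nuclei, a log2 difference of 5.30 (SE 0.202, edgeR adjusted p = 2.61e-14). Neither overlapped between the nuclei, and all 6 B-type cyclins tested were higher in sperm, at log2 differences of 3.92 to 6.28. Their summed level was 959.5 ± 94.9 CPM in sperm (SD, n = 12) and 22.3 ± 4.45 CPM in vegetative nuclei (n = 15) over all genotypes. CYCB1-2 differed from its relative CYCB1-1, which was at 2.03, 4.28 and 3.64 CPM in wild-type sperm. Of the 50-base windows in the exons of CYCB1-2, 11.3% also occur elsewhere in the genome, as do 17.0% of those of CYCB2-3, so part of their counts could be shared. Of the 7 A-type cyclins, CYCA2-1 and CYCA1-1 could be tested and both were higher in sperm. CYCA2-1, at 25.7, 33.2 and 30.3 CPM in sperm, was at 0.542, 0.492, 0 and 0.222 CPM in vegetative nuclei, a log2 difference of 6.47 (SE 0.328, edgeR adjusted p = 1.36e-12). CYCA2-1 passed the filter on low counts through sperm libraries alone, so its call adds no support beyond these levels.

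Of the 5 CDKs, 3 were tested and all 3 (CDKB1-1, CDKB1-2 and CDKB2-2) were higher in sperm. CDKB2-2 (AT1G20930), a mitotic kinase, was at 332.0, 364.4 and 447.0 CPM in sperm and at 3.47, 4.72, 5.02 and 5.43 CPM in vegetative nuclei, a log2 difference of 6.34 (SE 0.156, edgeR adjusted p = 8.85e-16). CDKB1-2 (AT2G38620) was at 277.3, 325.1 and 307.0 CPM in sperm and at 1.90, 2.76, 3.74 and 4.54 CPM in vegetative nuclei, a log2 difference of 6.56 (SE 0.187, edgeR adjusted p = 1.09e-15). These mitotic kinases did not overlap between the nuclei. The gene CDKB2-2 overlaps the gene AT1G20925, which averaged 2.55 CPM in sperm and 25.5 CPM in vegetative nuclei over all genotypes. CDKB2-1, of the same class, was at 0.956, 1.32 and 3.01 CPM in sperm and at 0.112, 0, 0 and 0 CPM in vegetative nuclei and was not tested. CDKA-1 (AT3G48750), the main CDK of plants, averaged 29.2 CPM in stem-cell libraries, where all 27 had counts. It was at 0.120, 0 and 0.377 CPM in wild-type sperm, with counts in 4 of 12 sperm and 4 of 15 vegetative libraries, and was not tested. Of the KRP inhibitors, 2 of 7 could be tested. KRP7 (AT1G49620) was at 7.53, 13.6 and 16.6 CPM in sperm and at 0.336, 0, 0.129 and 0.111 CPM in vegetative nuclei, a log2 difference of 6.26 (SE 0.456, edgeR adjusted p = 2.89e-10), without overlap. KRP7 also passed the filter on low counts through sperm libraries alone, so its call adds no support beyond these levels. The 7 KRP genes summed to 131.1 ± 25.9 CPM in stem-cell libraries (SD, n = 27), 144.4 ± 19.7 CPM in non-stem libraries (n = 13), 16.2 ± 4.51 CPM in sperm (n = 12) and 1.39 ± 0.593 CPM in vegetative nuclei (n = 15).

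All 6 MCM subunits were higher in sperm, at log2 differences from 3.61 to 6.50, and none overlapped between the nuclei over the libraries of all genotypes. MCM4 (AT2G16440) was at 241.4, 246.7 and 255.7 CPM in sperm and at 2.35, 3.68, 3.48 and 5.32 CPM in vegetative nuclei, a log2 difference of 6.07 (SE 0.177, edgeR adjusted p = 1.25e-15). MCM2 was at 60.4, 68.2 and 92.4 CPM in sperm and at 0.783, 0.460, 1.16 and 1.22 CPM in vegetative nuclei, a log2 difference of 6.31 (SE 0.200, edgeR adjusted p = 2.77e-15). MCM7, at 1520, 1852 and 1530 CPM in sperm, was at 11.7, 17.3, 20.1 and 24.5 CPM in vegetative nuclei. The subunits, which form 1 ring in equal parts, had unequal RNA levels: per kilobase, sperm means over genotypes were 609.2 CPM for MCM7, 91.5 for MCM4, 43.0 for MCM3, 21.7 for MCM2, 8.85 for MCM5 and 0.972 for MCM6. In stem-cell libraries the same means ran from 5.74 CPM per kb for MCM3 to 21.9 for MCM7. Sperm levels of MCM7 and MCM6 thus lay further apart than any of the subunits in stem-cell libraries, a difference that was not tested because the protocols differ.

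RBR1 (AT3G12280), the brake on E2F factors, was at 211.6, 231.5 and 232.0 CPM in sperm and at 5.93, 4.49, 7.86 and 6.09 CPM in vegetative nuclei, a log2 difference of 5.20 (SE 0.179, edgeR adjusted p = 6.56e-15). PCNA1 and the cyclin CYCD5-1 had no count in the 4 wild-type vegetative libraries. Against a floor of 3 counts over that group they were at least 25.0-fold and 38.6-fold higher in sperm. E2FA (AT2G36010) averaged 9.50 CPM in sperm and 1.15 CPM in vegetative nuclei, but it overlaps AT2G36020, which averaged 1155 and 1840 CPM, and reads of the pair may not be separated.

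The genes of mitosis and division were mixed: AT5G60930 and AUR2 were higher in vegetative nuclei, TSK was higher in sperm, no direction is drawn for AUR1, and KNOLLE was not tested. AT5G60930 was at 145.7, 158.4 and 186.0 CPM in sperm and at 327.2, 441.1, 372.8 and 510.1 CPM in vegetative nuclei. The nuclei did not overlap, and the log2 difference was -1.34 (SE 0.148, edgeR adjusted p = 9.98e-08). AUR2 (AT2G25880), named after its values were seen, was at 90.3, 127.8 and 133.2 CPM in sperm and 169.1, 204.4, 211.7 and 237.2 CPM in vegetative nuclei, a log2 difference of -0.83 (SE 0.134, edgeR adjusted p = 1.32e-05). TSK was at 2.75, 2.53 and 3.01 CPM in sperm and at 0.447, 0.691, 1.03 and 1.22 CPM in vegetative nuclei, without overlap, a log2 difference of 1.70 (SE 0.384, edgeR adjusted p = 0.000434). AUR1 (AT4G32830), also named after its values were seen, was at 48.5, 60.6 and 52.0 CPM and 52.0, 65.0, 83.0 and 83.7 CPM, and these values overlapped. Its log2 difference of -0.39 (edgeR adjusted p = 0.0147) was lost without sperm replicate 3 and turned to 0.10 with relative log expression factors. Summed vegetative cell genes were 6929 to 7803 CPM in wild-type sperm and 32322 to 38379 CPM in wild-type vegetative nuclei, with log2 differences of -1.74 to -3.15 for the 6 genes. The part of vegetative RNA in the sperm values of these members was not tested. AT5G60930, AUR2 and CYCD6-1 were called lower in sperm under all 6 alternatives and with each library left out. KNOLLE averaged 0.158 CPM in sperm and 0.323 CPM in vegetative nuclei.

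**Figure D3:**
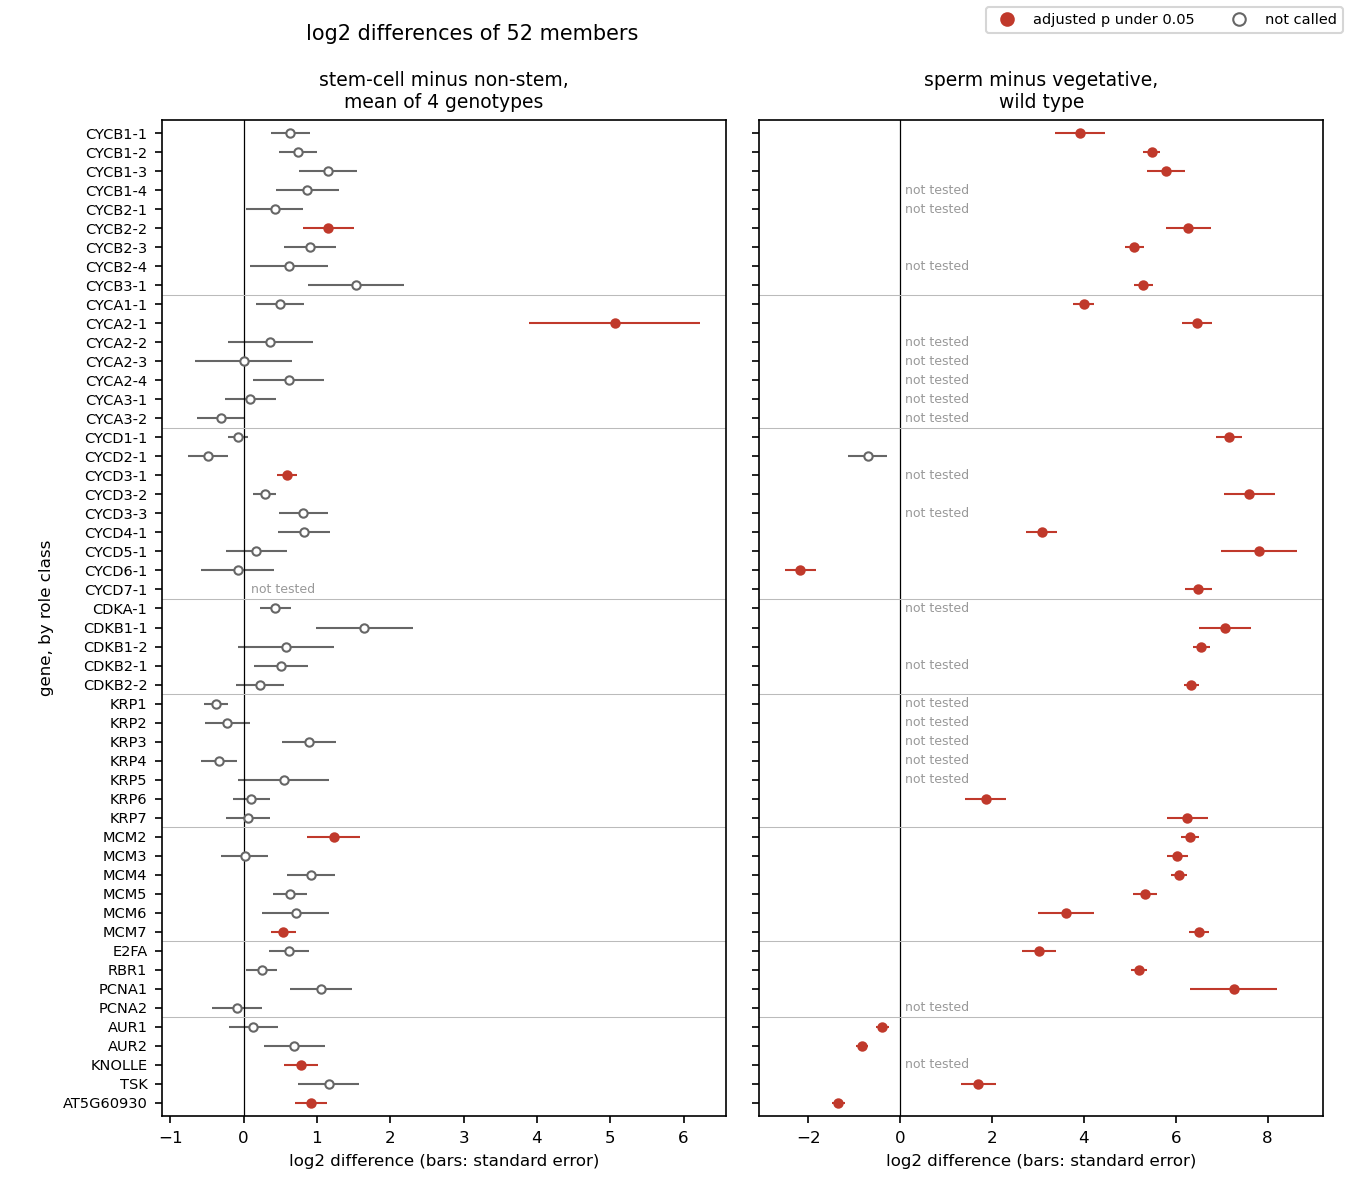
Log2 differences of the members in the stem-cell against non-stem comparison averaged over 4 genotypes (left) and in wild-type sperm against vegetative nuclei (right). Bars are standard errors, and CYCA2-1 on the left and CYCD5-1 and PCNA1 on the right have a group at 0, so their fitted values depend on the prior count. The members reach 1.65 on the left, CYCA2-1 aside, and 28 lie above 0 on the right.

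The 19 members not tested in wild-type pollen had mean levels of 0 to 1.98 CPM in sperm and 0 to 0.583 CPM in vegetative nuclei, and 15 of them were under 1 CPM in both. CYCD2-1 was the single tested member not called, with a log2 difference of -0.71 (edgeR adjusted p = 0.125). From the list of other cell cycle genes, 44 were tested, 35 were higher in sperm and 5 were lower. Of all 10125 features tested, 91.1% were called (45.0% higher, 46.1% lower), so the share called is near that of all features. CKS1, a CDK-binding subunit, and ORC3, a subunit of the origin recognition complex, had log2 differences of 6.58 (SE 0.170) and 6.44 (SE 0.166), both with an edgeR adjusted p of 8.85e-16. CDC20-1, an activator of the anaphase-promoting complex, and MAP65-3, which crosslinks microtubules in the division apparatus, had log2 differences of -3.98 (SE 0.221, edgeR adjusted p = 5.31e-12) and -3.59 (SE 0.283, edgeR adjusted p = 8.72e-10).

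Over the 4 genotypes, 37 members were tested and all 37 were called, 32 higher and 5 lower in sperm, against 94.6% of 12025 features (46.3% higher, 48.3% lower). The same 37 members passed the filter on low counts in the comparisons within sperm, and 20 passed it within vegetative nuclei. Members could thus enter through sperm alone, and the split in direction is partly set by that entry. Over all 27 pollen libraries, 29 members had every sperm library above every vegetative library and 3 (CYCD6-1, AUR2 and AT5G60930) had the reverse, against 11.1% and 9.95% of features. The 29 held all 6 MCM subunits, all 4 genes of the E2FA, RBR1 and PCNA group, 7 of 9 B-type cyclins, 5 of 9 D-type cyclins, 3 of 5 CDKs, 2 of 7 A-type cyclins and 2 of 7 KRP genes. No member was called by edgeR in the test of whether the sperm difference varies with genotype, where 0.0166% of features were, and 8 of the 37 had an unadjusted p under 0.05, as did 12.6% of all features.

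The ago mutants were set against the wild type in each population to see whether the loss of AGO5 or AGO9 moves these genes. In stem-cell nuclei AT5G60930 fell in ago59, and no other member was called in any of the 12 comparisons. The comparisons within a population share the same wild-type libraries. Wild-type stem-cell libraries held AT5G60930 at 56.5 to 97.0 CPM, with a mean of 79.1 ± 14.8 CPM (SD, n = 5). The ago59 libraries held 46.1, 57.0, 27.7, 44.7, 42.5, 42.2 and 29.3 CPM. A single ago59 library was above the lowest wild-type library, and the log2 difference was -1.09 (SE 0.303, edgeR adjusted p = 0.0375), where 2.94% of features were called (1.96% lower). In ago5 the libraries ranged from 17.0 to 75.6 CPM (mean 44.9 ± 19.2, n = 8), with a log2 difference of -0.97 (SE 0.293, edgeR adjusted p = 0.103) where 1.33% of features were called. In ago9 they ranged from 23.6 to 82.8 CPM (mean 46.1 ± 19.8, n = 7), with a log2 difference of -0.94 (SE 0.303, edgeR adjusted p = 0.203) where 0.671% were called. The ago59 call was lost when any of 9 of its 12 libraries was left out, namely wild-type replicates 3, 4, 5 and 8 and ago59 replicates 3, 4, 5, 6 and 8, with log2 differences of -1.18 to -0.95 and an adjusted p of at most 0.139. Summed mesophyll genes were 28485 to 33176 CPM in wild-type and 18984 to 20634 CPM in ago59 stem-cell libraries, and their part in the difference was not tested.

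**Figure D4:**
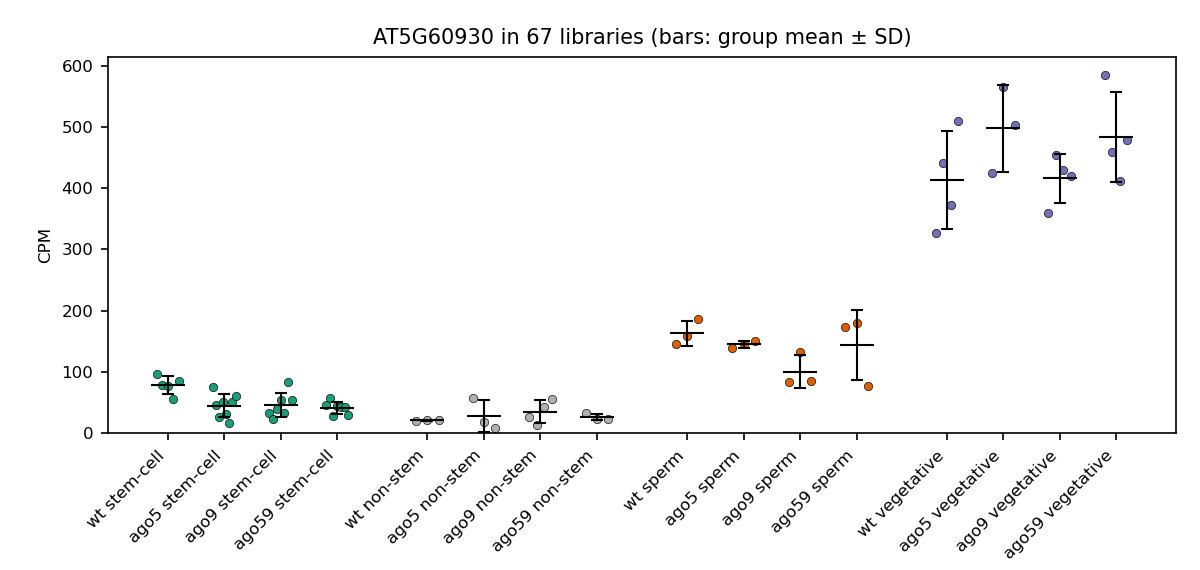
CPM of the kinesin gene AT5G60930 in the 16 groups of genotype and population. Dots are libraries and bars are the mean ± SD. Wild-type stem-cell libraries (56.5 to 97.0 CPM) lie above wild-type non-stem libraries (20.1 to 22.1 CPM), and vegetative libraries (327.2 to 585.0 CPM) lie above all sperm libraries (77.6 to 186.0 CPM).

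In sperm AT5G60930 was at 145.7, 158.4 and 186.0 CPM in the wild type, 139.6, 145.4 and 149.9 CPM in ago5, 83.7, 132.2 and 85.9 CPM in ago9 and 173.3, 180.1 and 77.6 CPM in ago59. The ago9 libraries were all below the wild-type ones while 2 of the 3 ago59 libraries lay within the wild-type range and 1 lay below it. The ago9 log2 difference was -0.52 (SE 0.162, edgeR adjusted p = 0.0777) where 3.37% of features were called, and 0.0312% were called in ago5 sperm and 0.145% in ago59 sperm. In vegetative nuclei the gene was at 327.2 to 510.1 CPM in the wild type, 424.3 to 565.1 in ago5, 359.2 to 454.9 in ago9 and 411.7 to 585.0 in ago59.

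For the remaining members the mutant comparisons give intervals rather than calls. Among 50 members tested in stem cells, 49 in non-stem nuclei, 37 in sperm and 20 in vegetative nuclei, edgeR called 0 in the other 11 comparisons. The counts at an unadjusted p under 0.05, for ago5, ago9 and ago59 in turn, were 3, 3 and 3 in stem cells, where they include AT5G60930 and where 10.9%, 8.12% and 12.2% of all features had such a p. They were 2, 1 and 1 in non-stem nuclei, against 8.59%, 7.6% and 10.9% of all features. In sperm they were 0, 10 and 1, against 4.49%, 17.5% and 7.68%, and in vegetative nuclei 0, 0 and 2, against 11.4%, 5.92% and 20.1%. DESeq2 called 1 member in ago5 stem cells and 2 in ago9 sperm. Precision differed by population, with a median SE of the log2 difference of about 0.5 in stem cells, 0.8 in non-stem nuclei, 0.2 in sperm and 0.3 in vegetative nuclei. In sperm the members' log2 differences ran from -0.54 to 0.75 in ago5, from -1.06 to 0.90 in ago9 and from -0.62 to 1.07 in ago59. The members' median in ago9 sperm was -0.33, against 0.02 over all features. The 6 vegetative cell genes had log2 differences of 0.30 to 0.75 in ago9 sperm, none called (lowest edgeR adjusted p = 0.0562), and summed to 10147 to 11582 CPM against 6929 to 7803 CPM in wild-type sperm. The 5 sperm genes had log2 differences of -0.08 to 0.37 and summed to 2572 to 2852 CPM against 2908 to 3194 CPM. The part of vegetative RNA in the ago9 values of the members was not tested. In non-stem nuclei the share of all features called was 0.382% in ago5, 0.245% in ago9 and 1.20% in ago59, and in vegetative nuclei it was 0.0111%, 0.1% and 1.69%. CYCD7-1 in sperm was 10675, 11057 and 10982 CPM in ago5, 11524, 9675 and 11319 CPM in ago9 and 9720, 9610 and 11306 CPM in ago59, where the ago9 and ago59 ranges overlap that of the wild type and the highest ago5 library lies just below the lowest wild-type library. From the list of other cell cycle genes, 1 was called, CDC20-1 in ago59 vegetative nuclei, at a log2 difference of 0.55 (edgeR adjusted p = 0.0422).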

How the data were processed

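RNA was measured in 67 libraries, 40 of seedling and 27 of pollen nuclei. The authors deposited 1 table of expected counts, estimates of reads per feature of which 7.58% were not whole, and the unit was read from the values. TAIR10 and DESeq2 are named in the submitters' processing notes, and the aligner, counter, annotation, strand handling and use of molecular identifiers are not given in the sources used here. For 60 libraries the column name gave the sample, and 7 of wild-type pollen were matched by elimination, which carry 21 in place of a genotype, and 0 columns were left out. Expected counts were rounded to whole numbers. CPM was computed from the unrounded counts and the totals of all 60886 features.

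Tests used edgeR 4.0.16 in R 4.3.3 with glmQLFit and glmQLFTest, after TMM scaling and a low-count filter (filterByExpr, count 10, total 15), without a replicate block, on all features passing the filter. A feature is called when its adjusted p (Benjamini-Hochberg) is under 0.05. Wild-type population comparisons were fitted on the groups compared, and means over genotypes, interactions and mutant comparisons on all groups of the tissue or population. The SE is the absolute log2 difference over the root of F. The edgeR step was tested on simulated data. No 2 libraries of a group agreed within sampling noise: the lowest chi-square over its degrees of freedom was 7.07 in 95 seedling pairs and 4.13 in 33 pollen pairs.

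The members and lists were chosen with earlier results of these data known. The naming rule took each called member, up to 12 per comparison with the smallest adjusted p first in each class, the highest or undetected members of a class, and up to 2 other cell cycle genes per direction. Alternatives were the DESeq2 1.42.0 Wald test, RLE factors, fitting without the low-count filter, removal of organelle and ribosomal RNA genes, replicate number as a block, a fit of all groups of a tissue, and leaving out each library. Leaving out non-stem libraries with reporter counts was chosen after seeing the data. Sequences come from RefSeq on TAIR10.1. Tables and plots used Python 3.11.15.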

Additional observations from a re-analysis of the deposited data

Results flagged for a closer look

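Of 111 groups of 4 to 10 libraries tested, 9 held a library that stood apart from the others of its group by Dixon's criterion, where chance gives about 1 in 20 groups. For CYCD3-1 the wild-type stem-cell replicate 4 was at 154.8 CPM, with the others at 48.5 to 58.4 CPM, and the ago59 stem-cell replicate 8 was at 42.6 CPM, with the others at 65.3 to 81.8 CPM. In that same ago59 library TSK was at 50.1 CPM, with the others at 10.6 to 23.2 CPM. CYCA2-1 was at 3.77 CPM in ago5 stem-cell replicate 1, with the others at 0 to 1.75 CPM.

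Among class sums, the A-type cyclins were at 113.3 CPM in ago5 stem-cell replicate 5 (others 59.3 to 81.1 CPM) and at 3.34 CPM in wild-type vegetative replicate 1 (others 2.19 to 2.33 CPM). The CDKs summed to 9.30 CPM in ago9 vegetative replicate 2 (others 5.77 to 6.15 CPM). The MCM genes summed to 149.0 CPM in ago9 non-stem replicate 3 (others 95.9 to 101.6 CPM), and the genes of mitosis and division to 200.6 CPM in ago9 stem-cell replicate 7 (others 100.6 to 138.3 CPM).

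Outside the gene counts, the mCherry reporter had 3.99 counts in ago59 non-stem replicate 1 and 18.0 in replicate 3, while the wild-type non-stem libraries had 0. It had 4.00 counts in ago59 sperm replicate 2, while the wild-type sperm libraries had at most 1.00.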

How the results depend on the processing

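The direction of 1 named member turned: AUR1 in wild-type pollen had a log2 difference of 0.097 with DESeq2 and 0.096 with RLE factors, against -0.39. The count of members called moved in these cases, and the cause was not tested. In wild-type seedlings 2 became 0 in a fit of all 8 groups, and 0 to 2 with a library left out. Averaged over genotypes, 7 became 15 with DESeq2, 3 without the non-stem libraries with reporter counts, and 4 to 8 with a library left out. In ago5 stem cells 0 became 1 with DESeq2 and 0 to 1 with a library left out. In ago9 sperm 0 became 2 with DESeq2 and 1 without the low-count filter, and in ago59 vegetative nuclei 0 became 2 without the filter. In ago59 stem cells 1 became 0 to 1 with a library left out. With a library left out, 31 to 34 members were called in wild-type pollen, 36 to 38 over the genotypes, and 0 in the other mutant comparisons and both interactions, for which DESeq2 was not run. Over all features, wild-type seedling calls were 31, 218 with DESeq2, 155 without the filter and 9 to 29 with a library left out. Sperm interaction calls were 2, and 257 without the filter.

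Libraries of different groups that share a replicate number did not deviate together, with correlations of -0.202 to 0.319 and no comparison of 3 or more pairs all over 0.1, so the numbers are not taken as pairs. With the replicate number as a block, calls went from 7 to 2 over the genotypes in seedlings, from 1 to 0 in ago59 stem cells and from 0 to 1 in ago9 sperm. Limits are set by 100 nuclei per seedling library and by 3 non-stem libraries in the wild type. Another is set by members at or below 1 CPM in both sperm and vegetative nuclei, where a difference was not detectable at this depth.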
